A study of Homo sapiens with 6 samples.

Results

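UCHL1 is a ubiquitin C-terminal hydrolase, an enzyme that removes ubiquitin and is abundant in neurons. The peaks described here are 41 UCHL1 sites in or within 5 kb of genes in which the published site list gives no telomeric repeat. They were taken from 81 listed sites near genes. Of these, 46 were not in the list of sites with telomeric repeats, and the rule left out the 5 sites of ARHGEF2, MCF2, DOCK11, DLC1 and RASGRF1, which encode regulators of small GTPases. The other 35 are listed with telomeric repeats, of which 33 held at least 2 consecutive hexamers in the dual cross-linking peak, and serve as the comparison.

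The series holds 6 libraries, a UCHL1 ChIP library and an input library for each of 3 conditions. DU 145 cells, a prostate cancer line derived from a brain metastasis, were cross-linked with 1% formaldehyde alone or with 1 mM DSP and 1% formaldehyde (dual cross-linking), and HEK293T cells, a line derived from embryonic kidney, were cross-linked with DSP and formaldehyde at the concentrations of the dual protocol. These are the labels' concentrations, whereas the study's methods give a lower formaldehyde concentration for dual cross-linking than for formaldehyde alone, so a difference in formaldehyde dose between the DU 145 lists is possible. DSP is a linker that joins proteins to each other, and formaldehyde also joins them to DNA. Formaldehyde chromatin was sonicated and dual cross-linked chromatin was cut with micrococcal nuclease, so cross-linking and fragmentation cannot be told apart. The labels name no other treatment and no genetic change made for the study.

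The authors' lists hold 3086 peaks for DU 145 with formaldehyde, 1531 for DU 145 with dual cross-linking and 2196 for HEK293T. A tag is a sequenced read counted in a peak, and fold enrichment is the ratio of tags to the local background in input. The score is −10 log10 of the p that MACS gives, and FDR is a percent that MACS obtains by exchanging ChIP and input. There was 1 ChIP library per condition, so no difference has a replicate check and no test was made. Intervals below cover counting error only, since sites of a library are not replicates.

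Telomeric DNA is built from the hexamer CCCTAA, whose complementary strand reads TTAGGG, and guanine-rich strands with several G runs can fold into four-stranded structures. Purine-rich microsatellites are a different kind of simple repeat, with A and G on one strand and C and T on the other. The members were sorted by the sequence under their dual cross-linking peak, read from hg19 (GRCh37). Polypurine runs were defined as stretches of 30 bases or more in which one strand has no base but A or G, with G making up at least 20%. By this definition 14 of 41 members held a polypurine run and 27 held neither repeat. No member held 2 consecutive telomeric hexamers. Polypurine runs were present in 9.52% of all readable dual cross-linking peaks. Among peaks common to both DU 145 lists that had no telomeric repeat and lay outside the listed genes, 26 of 70 held one (37.1%), close to the members' 34.1%.

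The site of ABCB1 is shown as an example of a long polypurine run, the clearest kind of sequence shared by members. It is the purine strand of the dual cross-linking peak, read 5′ to 3′, and capitals mark runs of at least 3 G.
ABCB1, chr7:87177480-87177603, plus strand: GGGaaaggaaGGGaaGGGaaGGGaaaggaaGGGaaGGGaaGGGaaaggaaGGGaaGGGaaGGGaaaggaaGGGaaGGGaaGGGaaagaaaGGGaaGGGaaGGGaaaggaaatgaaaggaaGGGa

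The purine run was 152 bases long at RNU6-66P, 129 at LOC101929526, 121 at ZNF382, 115 at SSX4B and 111 at ABCB1. The leading 5-base unit was GGGAA in 9 of the 14 polypurine members, GGAAA in 4 and GAAAA in WDFY3 alone. At ABCB1 the unit GGGAA occurred 16 times and GGAAA 7 times. The GGGAA members had a median fold enrichment of 48.9 with dual cross-linking (range 16.3 to 67.7, n = 9 sites) and the GGAAA members one of 22.04 (15.1 to 33.5, n = 4 sites), so the ranges overlapped. In the formaldehyde list these medians were 35.1 and 25.6.

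A pattern of 4 runs of at least 3 G, with loops of 1 to 7 bases, was present in 12 members. That is 29.3% of members, against 15.6% of all readable dual cross-linking peaks and 85.7% of the telomeric sites near genes. The share among common peaks without a telomeric repeat was not computed, so the pattern is not shown to be particular to members. Of the 12 members, 11 were polypurine sites. The remaining one was SMOC1, an extracellular calcium-binding glycoprotein gene, whose plus strand at chr14:70391465-70391528 is a guanine-rich tandem repeat, with runs of at least 3 G in capitals.
SMOC1: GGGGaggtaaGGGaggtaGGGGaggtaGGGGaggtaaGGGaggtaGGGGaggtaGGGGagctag
Single telomeric hexamers occurred in 1 member, RNF144A, an E3 ubiquitin ligase gene. Its minus strand at chr2:7099010-7099068 has 2 separate copies, in capitals.
RNF144A: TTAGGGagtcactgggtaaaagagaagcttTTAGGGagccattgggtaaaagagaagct
SND1, the gene of a nuclease-domain protein of RNA metabolism, had a repeat of another kind at chr7:127345586-127345691 (plus strand), with copies of its 6-base unit in capitals.
SND1: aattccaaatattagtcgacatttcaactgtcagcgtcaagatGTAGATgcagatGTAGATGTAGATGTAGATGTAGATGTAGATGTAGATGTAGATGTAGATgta

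In 10 polypurine members the listed gene could be found in the GENCODE annotation, which gives its strand. The purines lay on the template strand in 8 of the 10 (95% Wilson interval 49.0 to 94.3%). FRMPD4, a postsynaptic scaffold gene, and the non-coding RNA gene TSIX had the purines on the sense strand. Of the 6 members on chromosome X, 4 were polypurine, as were all 3 members on chromosome 19. None of the 5 members on chromosome 2 was. Common peaks outside the listed genes also included polypurine peaks on chromosomes X and 19, and no common peak on chromosome 2 was polypurine. The split by chromosome is thus not particular to members.

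**Figure D1:**
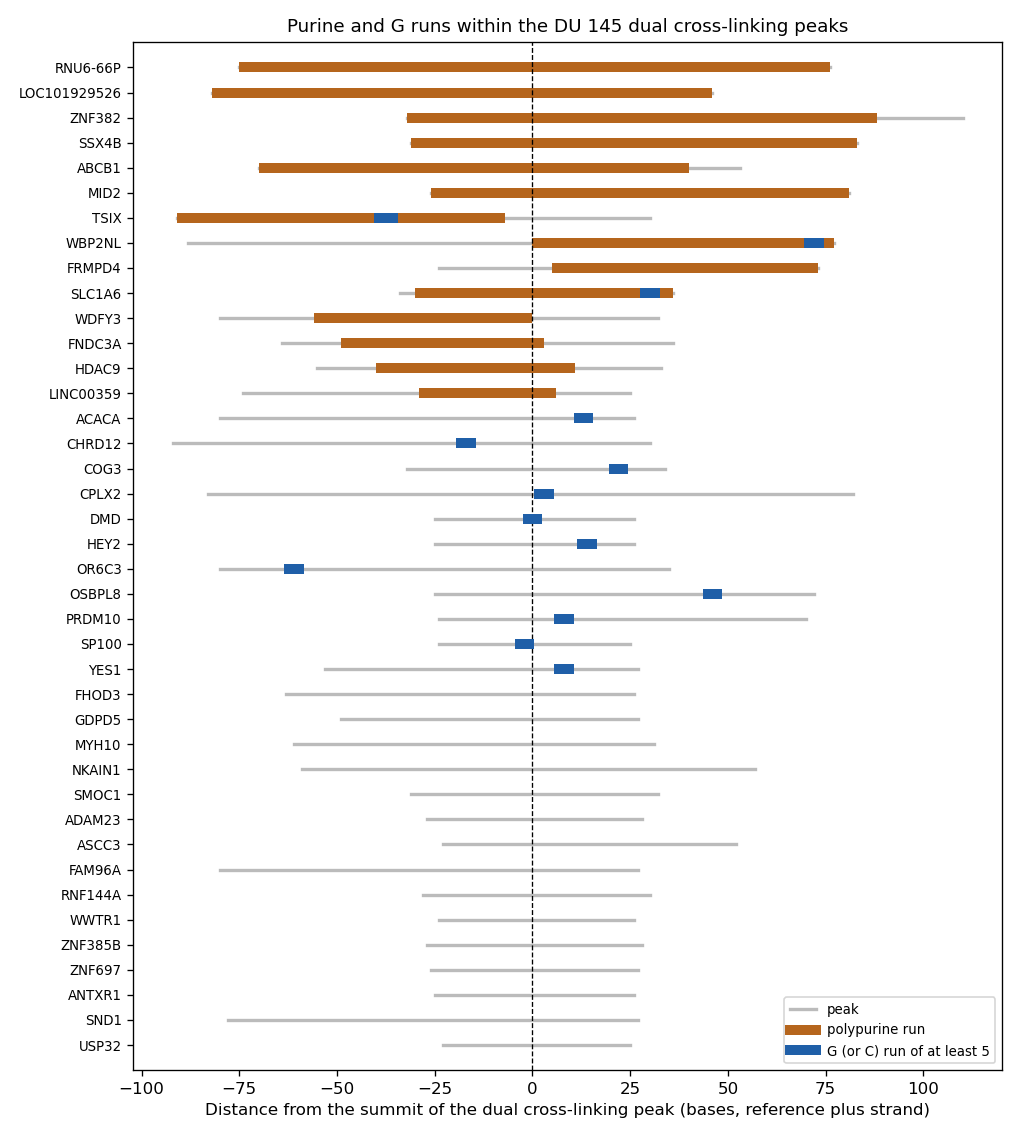
Position of polypurine runs and of G (or C) runs of at least 5 bases within each named member's dual cross-linking peak, with distance from the summit in bases on the horizontal axis. Grey lines are the peaks, which span 49 to 166 bases over the members. The polypurine runs of RNU6-66P, LOC101929526, SSX4B and MID2 fill their peaks.

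The 27 members with neither repeat were scanned for shorter features after their sequences had been seen. In 11 of them the peak held 5 or more consecutive G (or C) (40.7%, Wilson interval 24.5 to 59.3%). Among all readable dual cross-linking peaks with neither repeat the share was 14.7%. It was 9.09% (4 of 44) among peaks common to both DU 145 lists that had neither repeat and lay outside the listed genes. In each of the 11 members the longest run was exactly 5 bases. The holders were SP100, CPLX2, HEY2, CHRD12, PRDM10, OR6C3, OSBPL8, COG3, ACACA, YES1 and DMD. The run lay a median of 13 bases from the summit, with a range of 0 to 61.

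Words of 7 bases, counted on either strand, were ordered by how many of these 27 members held them. A word near the top, TGGGGGA, lies around such a run and was found in 5 of the 27, namely SP100, DMD, PRDM10, COG3 and ACACA. It was present in 2.71% of dual cross-linking peaks with neither repeat. Since the word was picked from these members, the contrast is no independent result. AAAAAAA was held by 6 of the 27 (15.5% of those dual peaks), and AGGCTGA (7.32%) and TTAAAAA (4.61%) by 5 each. Examples are printed on the plus strand with the run in capitals, SP100 at chr2:231325063-231325112, DMD at chrX:31950149-31950200, PRDM10 at chr11:129818848-129818942 and COG3 at chr13:46107007-46107073.
SP100: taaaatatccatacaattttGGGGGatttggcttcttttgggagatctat
DMD: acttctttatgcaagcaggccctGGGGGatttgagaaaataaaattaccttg
PRDM10: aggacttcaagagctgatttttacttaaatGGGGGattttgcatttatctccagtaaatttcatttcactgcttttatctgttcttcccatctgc
COG3: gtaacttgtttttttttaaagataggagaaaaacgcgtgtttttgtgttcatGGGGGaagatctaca

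**Figure D2:**
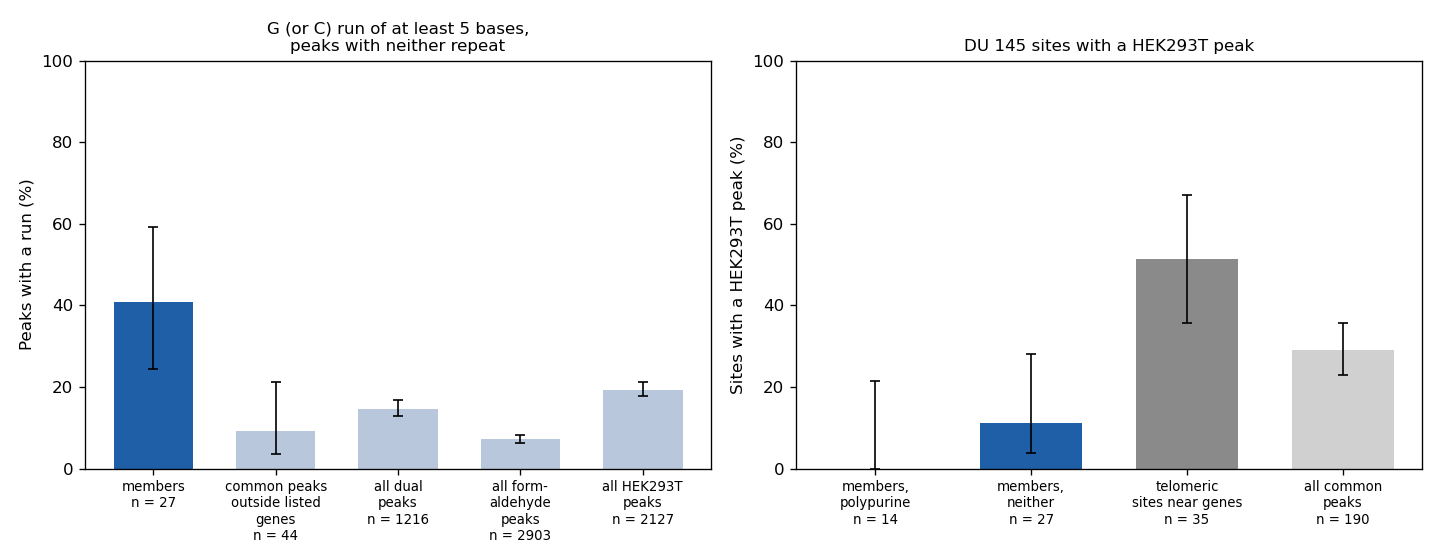
Left, share of peaks with a G (or C) run of at least 5 bases among peaks with neither repeat, in percent; right, share of DU 145 sites with a HEK293T peak, in percent. Bars are shares and error bars 95% Wilson intervals for counting error, and the members stand at 40.7% on the left and at 0 (polypurine) and 11.1% (neither) on the right.

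Exact copies in the genome were counted for the 50 bases around each dual cross-linking summit. This sequence had a single exact copy in 36 of 41 members, in all 27 with neither repeat and in 9 of 14 polypurine members. The study mapped 50-base reads with 2 mismatches allowed, and near copies were not counted. A single exact copy therefore does not show that reads were placed uniquely. It had 826 copies at MID2, 3 at RNU6-66P and 2 each at ZNF382, FRMPD4 and SSX4B. How the authors handled reads with several placements is not given in the sources used here, and its part in these 5 values was not tested.

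Presence in both DU 145 lists is fixed by how the sites were listed, and all 41 members had a peak in each by the midpoint rule, in which the centre of one interval lies within the other. The median fold enrichment of the members was 28.4 with formaldehyde (range 8.95 to 112) and 27.05 with dual cross-linking (11.7 to 67.7). The telomeric sites near genes had medians of 31.0 and 65.1, the 190 common peaks 31.0 and 35.9, and all peaks of the lists 15.95 and 17.1. The members' medians thus lay above those of the whole lists but not above those of the common peaks. Fold enrichment was higher with dual cross-linking in 18 of 41 members (43.9%, Wilson interval 29.9 to 59.0%), in 34 of 35 telomeric sites and in 64.2% of the 190 common peaks. It was higher in 8 of 14 polypurine members and 10 of 27 members with neither repeat. Among common peaks outside the listed genes it was higher in 17 of 26 polypurine peaks (65.4%) and 18 of 44 with neither repeat (40.9%), shares that lie within the members' Wilson intervals of 32.6 to 78.6% and 21.5 to 55.8%. The ratio of dual to formaldehyde fold enrichment had a median of 0.959 in members and 1.95 in telomeric sites.

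**Figure D3:**
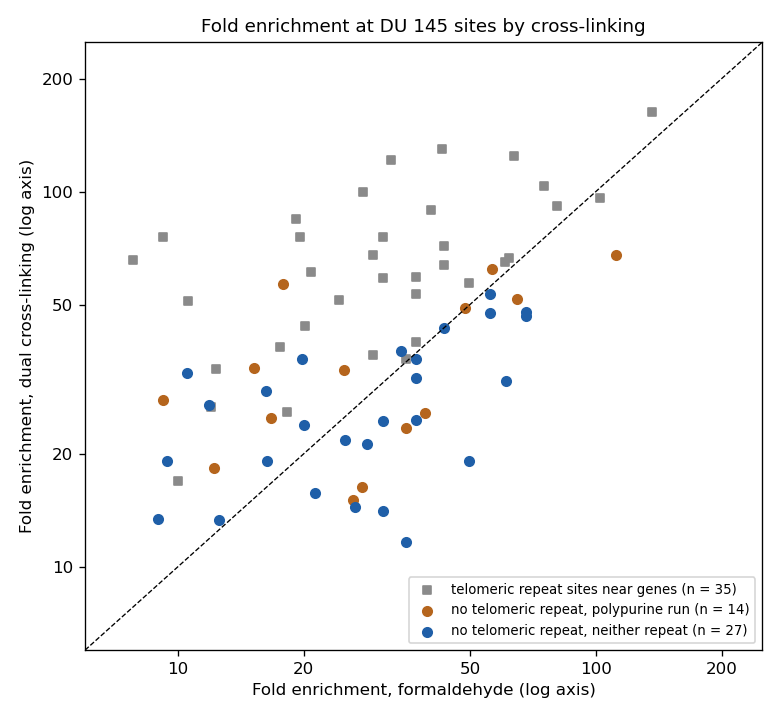
Fold enrichment with dual cross-linking against fold enrichment with formaldehyde at DU 145 sites (log axes), each point 1 site and the dashed line equal values. Members lie on both sides of the line, 18 of 41 above it, and 34 of 35 telomeric sites lie above it.

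Ratios of 2 or more were found in 6 members and of 0.5 or less in 3. At SLC1A6, a glutamate transporter gene, the formaldehyde peak had a fold enrichment of 17.8 and the dual cross-linking peak one of 56.7, but the summits lay 110 bases apart. At ZNF385B the values were 10.5 and 32.9 with summits at the same base. In the other direction, WWTR1, the Hippo pathway coactivator TAZ, had 35.1 with formaldehyde and 11.7 with dual cross-linking, and DMD, the dystrophin gene, had 49.6 and 19.1.

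Tags were few. The median member had 8 tags with formaldehyde (range 6 to 18) and 13 with dual cross-linking (7 to 25), without scaling for library size. Tags were higher with dual cross-linking in 36 members and equal in 3. The exact 95% Poisson intervals of the tags overlapped between the DU 145 lists in 40 of 41 members. At 6 formaldehyde tags, SP100, CPLX2 and SMOC1 had the same fold enrichment, 37.2, while RNF144A, WWTR1, HDAC9 and OSBPL8, also at 6 tags, had between 25.1 and 35.1.

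An FDR of 5% or less with dual cross-linking was met by 40 of 41 members, against 68.3% of that list, and the exception was MID2 at 5.56%. With formaldehyde it was met by 5 of 41, against 1.91% of that list. These 5 were NKAIN1 at 4.55%, FAM96A at 4.88%, and CHRD12, FNDC3A and SSX4B at 0%. NKAIN1 had 9 tags, score 163 and fold enrichment 55.8 with formaldehyde, and 14 tags, score 139 and fold enrichment 47.4 with dual cross-linking. FAM96A, listed in GENCODE as CIAO2A, a factor of cytosolic iron-sulphur protein assembly, had 11 tags, score 139 and fold enrichment 55.8, and then 15 tags, score 155 and fold enrichment 53.5. SSX4B, a cancer-testis antigen gene, had 15 tags and fold enrichment 64.99, and then 16 tags and fold enrichment 51.8.

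By the same rule, HEK293T peaks were found at 3 of 41 members (7.32%, Wilson interval 2.52 to 19.4%). The share was 28.9% over the common peaks, 7.58% over all dual cross-linking peaks of DU 145 and 51.4% (18 of 35) over telomeric sites near genes. None of the 14 polypurine members had one, where the upper Wilson bound is 21.5%. Outside the listed genes, 6 of 26 common polypurine peaks and 7 of 44 with neither repeat had one. All 3 members with a HEK293T peak held neither repeat.

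ZNF385B, which encodes a zinc finger protein, had a HEK293T fold enrichment of 19.3 with 9 tags, score 50.6 and FDR 30.2%. In DU 145 it had 12 tags with formaldehyde and 16 tags, score 217 and FDR 0% with dual cross-linking. Its site lies 2.46 kb upstream of the annotated start. It had no long G run, as its minus strand at chr2:180728772-180728827 shows, where capitals mark the longest run.
ZNF385B: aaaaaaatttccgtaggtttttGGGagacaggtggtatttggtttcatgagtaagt
CHRD12 lies by position in CHRDL2, which encodes a chordin-like secreted protein. It had 11 tags and fold enrichment 68.2 with formaldehyde, 25 tags and fold enrichment 46.6 with dual cross-linking, and 13 tags, fold enrichment 16.85, score 58.7 and FDR 28.0% in HEK293T. PRDM10, a PR domain zinc finger gene, had fold enrichments of 9.44, 19.2 and 19.6 in that order of lists, and a HEK293T FDR of 22.7%. No HEK293T peak at a member met an FDR of 5%, which 17.8% of that list met.

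**Figure D4:**
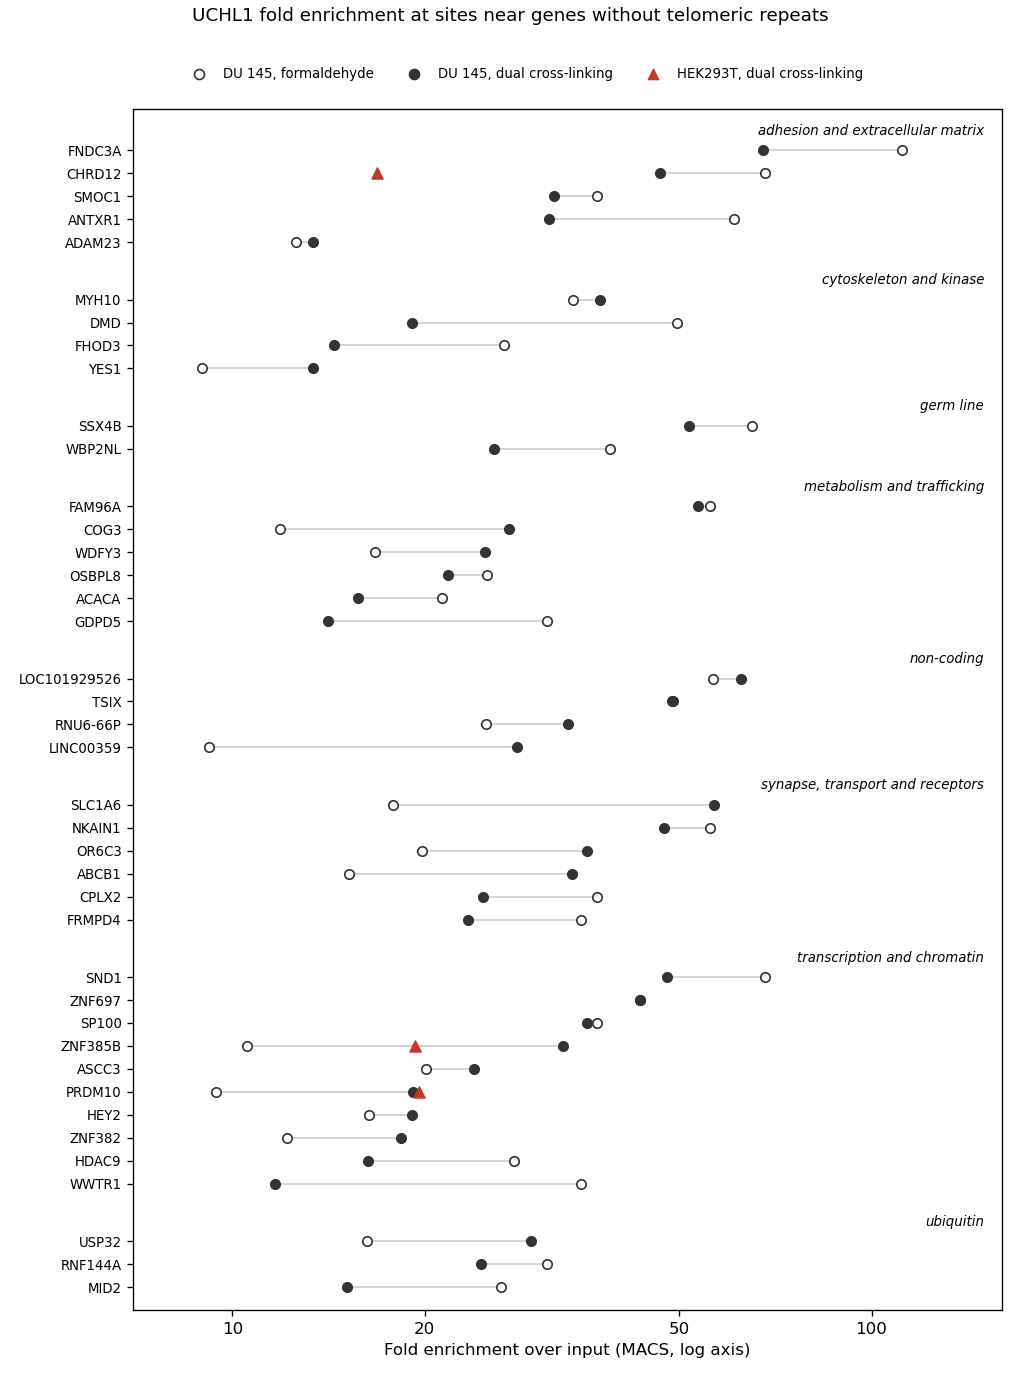
Fold enrichment over input (log axis) at each of the named members, grouped by gene function. Open circles are DU 145 with formaldehyde, filled circles DU 145 with dual cross-linking and triangles HEK293T, which are present for ZNF385B, CHRD12 and PRDM10. At TSIX and ZNF697 the DU 145 circles coincide.

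By function, 10 members belong to transcription and chromatin genes, of which 8 held neither repeat. SP100, a component of PML nuclear bodies, had fold enrichments of 37.2 and 35.9, giving here and below the formaldehyde value before the dual cross-linking value. SND1 had 68.2 and 47.8, and ZNF697 43.43 and 43.42. ASCC3, a helicase of a transcription coactivator complex, had 20.1 and 23.9. HEY2, a Notch pathway repressor had 16.4 and 19.1. The polypurine sites of this group lie in HDAC9, a class IIa histone deacetylase gene (27.6 and 16.3), and ZNF382, a KRAB zinc finger gene (12.2 and 18.4).

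UCHL1 itself acts in the ubiquitin system, to which 3 members belong. RNF144A had fold enrichments of 31.0 and 24.5, USP32, a deubiquitinase gene, 16.25 and 29.4, and MID2, a TRIM family E3 ligase gene, 26.3 and 15.1. The direction between lists differed among them. All 4 cytoskeleton and kinase members held neither repeat. MYH10, a non-muscle myosin heavy chain gene, had 7 tags with formaldehyde and 23 with dual cross-linking, the only member whose tag intervals did not overlap, and fold enrichments of 34.1 and 37.55. FHOD3, a formin gene, had 26.6 and 14.4, and YES1, a Src family kinase gene, 8.95 and 13.4.

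Of the 6 synapse, transport and receptor genes, 3 were polypurine. ABCB1, the P-glycoprotein drug efflux pump gene, had fold enrichments of 15.2 and 34.0, and FRMPD4 35.1 and 23.4. CPLX2, a regulator of SNARE-driven release, had 37.2 and 24.6, and OR6C3, an olfactory receptor gene, 19.8 and 35.9. Among adhesion and matrix genes, FNDC3A, which encodes fibronectin type III domains, had the highest member value in both lists, 112 and 67.7, with 18 tags in each. ANTXR1, an anthrax toxin receptor gene, had 60.9 and 31.2. SMOC1 had 37.2 and 31.8, and ADAM23 had 12.6 and 13.4.

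Metabolism and trafficking held 7 members, 1 of them polypurine. COG3, of the Golgi tethering complex, had fold enrichments of 11.9 and 27.05, and ACACA, acetyl-CoA carboxylase, 21.3 and 15.7. OSBPL8, an oxysterol-binding protein relative, had 25.1 and 21.8, GDPD5 31.0 and 14.1, and WDFY3, an autophagy adaptor gene, 16.7 and 24.9. Both germ line genes and all 4 non-coding genes were polypurine. WBP2NL, a sperm protein gene, had 39.0 and 25.7. LOC101929526 had 56.5 and 62.4, TSIX 48.7 and 48.9, RNU6-66P 24.9 and 33.5, and LINC00359 9.21 and 27.9.

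The site list placed 35 members in introns, 4 in exons and 2 outside genes, and the GENCODE annotation gave the same counts. These include sites placed by position in a gene of another name. The SSX4B site, listed outside genes, lay in an intron of the pseudogene RP11-344N17.12, LINC00359 in one of the pseudogene TULP3P1, and LOC101929526 in one of a protein-coding gene. RNU6-66P, listed in an intron, had no gene there. Where the listed gene was found, the DMD site lay in intron 46 of 78 of a gene of 2242 kb, and the HEY2 site in exon 2 of 5.

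HEY2, OR6C3 and TSIX had their sites in exons. The place was read at the midpoint of the listed site, and how far each peak reaches beyond the exon was not examined. HEY2 at chr6:126073002-126073053, with the midpoint of its site in coding sequence, had 8 tags, score 60.3 and FDR 18.0% with formaldehyde, and 10 tags, score 122 and FDR 1.79% with dual cross-linking. OR6C3 at chr12:55725779-55725894, also coding, had 7 tags, score 53.2 and FDR 26.2%, and then 10 tags, score 90.6 and FDR 1.51%. TSIX at chrX:73014057-73014178, in a non-coding exon, had 11 tags, score 130 and FDR 6.8%, and then 18 tags, score 169 and FDR 0.79%. In all 3 the tags were more numerous and the FDR lower in the dual cross-linking list. This is not particular to exon sites, since tags were higher there in 36 of 41 members. The median FDR over all peaks was 2.99% in the dual cross-linking list and 18.5% in the formaldehyde list.

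The members with the longest polypurine runs spanned much of the range. RNU6-66P had 10 tags, score 84.6 and FDR 15.3% with formaldehyde, and 23 tags, score 204 and FDR 1.01% with dual cross-linking. LOC101929526 had 15 tags, score 144 and FDR 5.63%, and then 21 tags, score 219 and FDR 0%. ZNF382 had 13 tags, score 59.9 and FDR 17.9%, and then 15 tags, score 112 and FDR 1.56%. All of these gained tags and score in the dual cross-linking list. ABCB1 had 8 tags, score 67.5 and FDR 18.6%, and then 14 tags, score 126 and FDR 1.91%. SSX4B scored 168 and 167.

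The highest dual cross-linking fold enrichments belonged to FNDC3A, LOC101929526 and SLC1A6, and the lowest to WWTR1, ADAM23 and YES1. FNDC3A at chr13:49635425-49635525 scored 266 with formaldehyde and 205 with dual cross-linking, and SLC1A6 at chr19:15086654-15086724 scored 63.2 with 8 tags and 201 with 17 tags. WWTR1 at chr3:149352233-149352283 had 6 tags, score 98.9 and FDR 11.1%, and then 7 tags, score 72.1 and FDR 2.5%. ADAM23 at chr2:207323342-207323397 had 11 tags, score 63.4 and FDR 18.7%, and then 13 tags, score 114 and FDR 1.61%. YES1 at chr18:789541-789621 had 9 tags, score 50.6 and FDR 28.1%, and then 10 tags, score 63.4 and FDR 3.02%. WWTR1, ADAM23 and YES1 thus met an FDR of 5% with dual cross-linking, a limit that 40 of 41 members met.

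The list also carries expression marks for the genes, from minus to 3 plus signs, on a scale that it does not define. Of 36 members with a mark, 25 had at least 1 plus (69.4%, Wilson interval 53.1 to 82.0%), against 8 of 27 telomeric sites (29.6%, 15.9 to 48.5%). Marks belong to genes, and FAM157A and LINC00266-1, both marked minus, have more than 1 telomeric site. Their marks are thus counted repeatedly, and the telomeric share and interval are by site and not by gene. The highest mark was given to 10 of the 26 marked members with neither repeat, MYH10, ACACA and COG3 among them, and to 1 of the 10 marked polypurine members, FNDC3A. Fold enrichment with dual cross-linking had a median of 27.05 at the 11 members with the highest mark and of 32.9 at the 11 marked minus.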

How the data were processed

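UCHL1 ChIP libraries and their inputs were sequenced on the SOLiD platform, mapped to hg19 with Lifescope and called with MACS 1.4.2 against input, per the labels and the study's methods. The tag counts per peak were deposited without scaling. The authors' deposited fold enrichment is a ratio to local input background. A score that the authors deposited lost its column name and was taken as −10 log10 of p, since it starts at 50.0, and the FDR the authors deposited is a percent. Positions are 1-based. The input libraries enter through the authors' calls only.

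Members were matched to peaks by the midpoint rule, taking the highest fold enrichment where several matched. Sequence was read from GRCh37 with pysam 0.24.0, and genes from GENCODE mapped to that build. LINC00359, LOC101929526, SSX4B and CHRD12 were not found there by symbol. Shares have 95% Wilson intervals and tags exact Poisson intervals (scipy 1.17.1). With 1 library per condition no test was made. Overlap and pattern steps were tested on simulated data. Members, gene groups and sequence classes were chosen with earlier results of these data known. All members were named with their fold enrichment, with fuller values for those with a HEK293T peak, at extremes or with an FDR of 5% or less in both DU 145 lists, except that 1 member is not reported here by name and the sequences of some others are not reported here. The authors' site list supplied positions, places and expression marks. Alternatives were other overlap rules, score and FDR limits, intervals read and pattern definitions.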

Additional observations from a re-analysis of the deposited data

How the results depend on the processing

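The HEK293T count of 3 members, the intron, exon and outside-gene counts and the 4 G run count stayed within 1.5 times of their values under every alternative run, as did the polypurine count of 14, which ranged from 13 to 15. For the HEK293T count the alternatives changed only the overlap rule or the interval. Score and FDR limits were not applied to it, and none of its peaks met an FDR of 5%. Requiring a score of at least 100 in each DU 145 list left 13 members matched in both, and an FDR of 5% or less left 5, since both settings remove sites. The median fold enrichment at a score of at least 100 was 52.7 with formaldehyde (16 members) and 34.9 with dual cross-linking (24 members), and no HEK293T peak at a member reached that score. Members higher with dual cross-linking numbered 36 by unscaled tags in place of 18 by fold enrichment, and 27 by score. Telomeric hexamers were found in 2 members in the listed site, in 2 in the formaldehyde peak and in 4 (RNF144A, ASCC3, ACACA and SLC1A6) when the dual peak was widened by 100 bp on each side. Raising the G (or C) run minimum to 6, an alternative chosen after seeing the data, left 0 of 27 members with neither repeat, where 3.45% of dual cross-linking peaks held one, so the 5-base result rests on runs of exactly that length. At a minimum of 4 the count was 16 of 27 (59.3%), against 44.2% of dual cross-linking peaks with neither repeat. No paired analysis was possible because each condition has 1 ChIP library. The low tag numbers limit all single-site values.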

Other observations

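Peaks other than the listed site were sparse within the 40 annotated genes and 5 kb around them. The formaldehyde list had 15 such peaks in 9 genes, the dual cross-linking list 8 in 5 genes and the HEK293T list 2 in 2 genes. DMD held 5 of the formaldehyde and 3 of the dual cross-linking peaks, and FRMPD4 2 of each and 1 HEK293T peak.

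Runs of at least 7 A (or T) were present in 78.4% of the 2903 formaldehyde peaks with neither repeat, but in 5 of 27 of the members' own formaldehyde peaks (18.5%, Wilson interval 8.18 to 36.7%). In the dual cross-linking list the share was 15.5% of 1216 peaks and 6 of 27 members (22.2%). It was 6.82% (3 of 44) in common peaks with neither repeat outside the listed genes, read from their dual peaks. Members had to be called in the dual list too, so the whole formaldehyde list is not a like background. Formaldehyde peaks of the other common sites were not examined. These runs were examined after the data had been seen, and their cause was not tested.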
